A study of Mus musculus with 3 samples.

Results

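The thick ascending limb of the loop of Henle is the tubule segment that reabsorbs salt without water. Its cells carry the sodium-potassium-chloride cotransporter Slc12a1 on the luminal side and make uromodulin (Umod), the most plentiful protein of normal urine. Salt entry sets up the voltage that drives calcium and magnesium between the cells through claudins, and the segment is a main source of epidermal growth factor (Egf) in the kidney. After tubular injury these cells can secrete lipocalin 2 (Lcn2, NGAL), an iron-carrier binding protein measured in urine as a sign of kidney damage.

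Thick ascending limb cells were picked out of the droplet single-cell RNA libraries of 3 mouse kidneys, 1 library per animal. Barcodes were kept when they held at least 1672 unique molecular identifiers (UMIs, each counting 1 captured transcript), at least 200 genes and at most 50% UMIs of mitochondrial genes. A kept barcode was a member when it had at least 2 UMIs of Slc12a1 and at least 5 of Umod, with at most 2 UMIs in sum of Slc12a3, Aqp2 and Atp6v1g3, which mark the segments further down, at most 2 in sum of the proximal tubule genes Lrp2 and Slc34a1, and at most 1 in sum of the leukocyte genes Ptprc and Tyrobp. Of 48404 kept barcodes, 1819 were members. Since the levels of these genes chose the cells, Slc12a1 and Umod are given below as a description.

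The study asked how loss of acyloxyacyl hydrolase (Aoah), an enzyme that removes fatty acyl chains from bacterial lipopolysaccharide, affects the kidney after folic acid (FA), which injures tubules and leads to fibrosis. Of the animals, 2 were Aoah-/- (replicates 2 and 3) and 1 was wild type (WT, replicate 3), and all were 6 to 8 weeks old according to their labels, treated with FA and killed on day 14. The Aoah mutation was carried in the germ line, so it was not limited to a cell type, and it had been bred onto C57/BL6J, with WT littermates as controls. No kidney without FA was among the libraries, and the single WT animal means that a genotype difference and the particulars of that animal cannot be told apart. All values of 3 libraries below are in the order Aoah-/- replicate 2, Aoah-/- replicate 3 and WT replicate 3.

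Depth differed between libraries, but not in the direction of genotype. Members numbered 630, 794 and 395, with 5871880, 6512529 and 3078620 UMIs in sum and a median of 9152, 6297 and 7171 UMIs per cell. The deposited barcodes of Aoah-/- replicate 3 started at 1672 UMIs and those of the other 2 libraries at 500, so the floor of 1672 was put on all 3. Pairs of libraries shared 171 to 176 barcode sequences, and no shared barcode was a member in both libraries of a pair. The median share of mitochondrial UMIs per member was 23.2%, 22.7% and 12.9%, higher in both Aoah-/- libraries, and this difference lies beside each genotype comparison below, where its part was not tested.

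The targeted gene could not check the labels in these cells, because thick ascending limb cells hardly had it. Aoah gave 4, 2 and 1 UMIs over all members. In proximal tubule cells, picked by at least 5 UMIs of Lrp2 and Slc34a1, Aoah was at 13.0, 11.5 and 26.6 CPM, the count of a gene per 1000000 UMIs summed over the cells of a library, and in macrophages, picked by at least 5 UMIs of C1qa, C1qb and C1qc, at 3.05, 3.51 and 20.2 CPM. Both Aoah-/- libraries were below WT in each of these cell types, with counts above 0.

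The rule fixed high levels of its own genes. Slc12a1 stood at 5014, 4574 and 4271 CPM and Umod at 12683, 12540 and 11470 CPM, against 136, 159 and 43.5 CPM and 474, 627 and 225 CPM in all other kept barcodes. The label therefore rests on the markers outside the rule, all of which were present. Egf was at 3104, 2804 and 2703 CPM, Sostdc1, a secreted inhibitor of BMP and Wnt signals, at 723, 764 and 1037 CPM, and Wfdc15b, a small secreted protein with a protease-inhibitor fold, at 1266, 1124 and 1375 CPM. Distal convoluted tubule cells, the next segment, also had these genes, with Umod at 2188, 2705 and 2172 CPM, whereas T cells of the same libraries had 108, 104 and 30.2 CPM of Umod. The Umod level in T cells, which should lack it, was higher in both Aoah-/- libraries, while haemoglobin genes in T cells summed to 3855, 3679 and 7511 CPM and fibroblast genes to 46.5, 43.7 and 272 CPM, higher in WT.

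**Figure D1:**
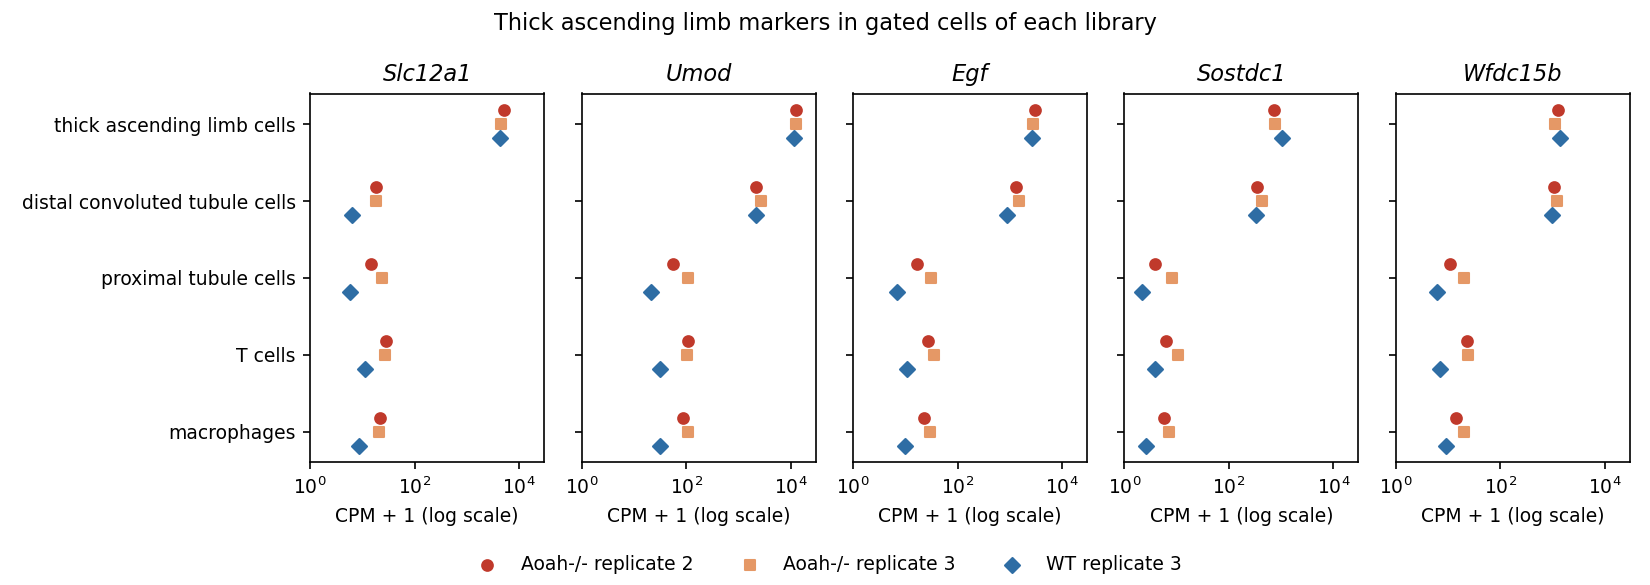
Levels of 5 thick ascending limb markers in cells of 5 gates, in CPM plus 1 on a log axis, with 1 point per library (circle, Aoah-/- replicate 2; square, Aoah-/- replicate 3; diamond, WT replicate 3). Slc12a1 lies between 4271 and 5014 CPM in thick ascending limb cells of every library, a gene the rule used, while Wfdc15b is nearly as high in distal convoluted tubule cells.

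The genes with the highest ratio to all other kept barcodes, among those with a mean of at least 50 CPM, are given as a description. Slc12a1, Cldn16, Umod, Nccrp1, Cldn19, Tmem207, Irx2, Egfl6, Irx1 and Egf led the list, and Sim2, Ptger3, Ppp1r1b, Erbb4, Sostdc1, Slc5a3, Ppp1r1a, Wfdc15b and Tfap2b were also on it. Cldn16 and Cldn19, which together form the pore for calcium and magnesium, had log2 ratios of 4.94 and 4.78 as means over the libraries. Irx1, Irx2, Sim2 and Tfap2b are transcription factors of the distal nephron, with log2 ratios of 4.50, 4.65, 4.37 and 3.51. Ptger3, the prostaglandin E2 receptor that restrains salt transport here, had 4.33. Not all listed genes set members apart from distal convoluted tubule cells. Ppp1r1a was at 866, 1015 and 951 CPM there against 1026, 963 and 1315 CPM in members. Tfap2b was at 257, 245 and 218 CPM there against 330, 351 and 354 CPM, and Wfdc15b at 1067, 1205 and 961 CPM there. Cldn16, by contrast, was at 1.44, 4.13 and 2.85 CPM there. In all, 561 of 5822 genes (9.64%) were at least 2-fold higher than in the other barcodes in each library, a description of cells chosen by 2 of those genes.

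Signs of other cell types were present and differed in size. In WT the erythroid list given here summed to more than Slc12a1 at 4271 CPM. Slc12a3, Aqp2, Lrp2 and Ptprc were limited by the rule itself. The list of proximal tubule genes summed to 1654, 2508 and 1644 CPM, with Kap, an androgen-driven proximal gene, its most abundant member at 548, 1025 and 710 CPM. The haemoglobin genes of the erythroid list summed to 690, 2911 and 4700 CPM, the macrophage list to 386, 658 and 244 CPM and the lymphocyte list to 92.0, 127 and 113 CPM. The distal convoluted tubule list summed to 2073, 2537 and 3060 CPM, most of it Klk1 at 1770, 2237 and 2756 CPM. In distal convoluted tubule cells Klk1 was at 2873, 3400 and 2749 CPM. Fibroblast genes summed to 61.1, 33.3 and 147 CPM, lower in both Aoah-/- libraries, with Dcn at 12.9, 1.54 and 66.9 CPM and Sparc at 21.1, 27.0 and 42.9 CPM, and their part in the genotype comparison below was not tested. Principal cell genes summed to 29.3, 35.6 and 35.4 CPM and granulocyte genes to 15.2, 64.3 and 7.80 CPM.

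At the borders of the rule, most marker levels given here were lower just outside than just inside, without vanishing. Cells just inside the Slc12a1 limit numbered 35, 89 and 25, and cells just outside it 93, 172 and 26. At the Umod limit 49, 84 and 36 cells were just inside and 74, 98 and 28 just outside. Cells just inside the Slc12a1 limit (2 or 3 UMIs) had Egf at 93.8, 374 and 452 CPM, and cells just outside it (0 or 1) at 24.99, 107 and 255 CPM. Umod at this limit was at 5232, 4068 and 4389 CPM just inside and 3340, 4234 and 2140 CPM just outside, so it was higher outside in Aoah-/- replicate 3. Cells just inside the Umod limit (5 to 9 UMIs) had Slc12a1 at 3357, 2932 and 2780 CPM, and cells just outside (0 to 4) at 2684, 2147 and 1343 CPM. The proximal limit alone removed 170, 444 and 91 barcodes that had passed on Slc12a1 and Umod, and the immune limit alone 67, 118 and 10, so these limits took most barcodes from Aoah-/- replicate 3.

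Members made up 4.08% (95% Clopper-Pearson interval 3.77 to 4.40), 4.03% (3.76 to 4.32) and 2.98% (2.69 to 3.28) of kept barcodes, higher in both Aoah-/- libraries by about 1.08 percentage points. The intervals cover counting error only, and with 2 animals against 1 no permutation can give a p under 0.333. The difference hung on the limit for mitochondrial UMIs: with at most 20% in place of 50%, the shares were 2.64%, 2.92% and 2.85%. With no UMI of the excluded genes they were 1.31%, 1.16% and 1.21%. Under the 50% limit proximal tubule cells, picked as above, made up 32.5%, 31.8% and 47.8% of the same kept barcodes, more in WT. A share of all kept barcodes falls when another cell type takes up more of them. The part of this in the member shares was not tested.

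Levels of Umod, Slc12a1 and Egf ranged widely among cells. Across members the middle 50% of cells ranged from 4820 to 18304, 4455 to 16196 and 5179 to 14305 CPM for Umod, and from 2524 to 7074, 1795 to 6370 and 2136 to 5843 CPM for Slc12a1. Egf had a median of 875, 661 and 1994 CPM, a 95th percentile of 12366, 11858 and 9224 CPM, and no UMI in 28.3%, 27.3% and 20% of cells. Cells low in Umod or Slc12a1 were left out by the rule, so the spreads of the 3 genes are not comparable. To set the gene starts of these 3 side by side, the 250 bases before each start are printed from RefSeq (GRCm38.p6), read 5′ to 3′ on the gene's strand, with capitals marking matches to GTTAAT, part of the palindrome bound by HNF1 factors, to TGANTCA, the AP-1 letters, or to TATAAA, on either strand.
Umod, minus strand, chr7:119479263-119479512: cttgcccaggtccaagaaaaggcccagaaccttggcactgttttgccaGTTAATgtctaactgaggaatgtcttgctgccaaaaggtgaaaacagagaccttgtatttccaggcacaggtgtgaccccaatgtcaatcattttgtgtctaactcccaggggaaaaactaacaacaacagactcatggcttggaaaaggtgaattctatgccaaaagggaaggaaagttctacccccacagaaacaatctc
Slc12a1, plus strand, chr2:125152350-125152599: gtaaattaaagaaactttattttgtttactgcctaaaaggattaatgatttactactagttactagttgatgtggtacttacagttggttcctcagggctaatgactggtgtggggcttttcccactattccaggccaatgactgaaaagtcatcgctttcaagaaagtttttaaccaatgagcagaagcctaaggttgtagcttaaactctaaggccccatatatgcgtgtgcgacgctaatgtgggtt
Egf, minus strand, chr3:129755323-129755572: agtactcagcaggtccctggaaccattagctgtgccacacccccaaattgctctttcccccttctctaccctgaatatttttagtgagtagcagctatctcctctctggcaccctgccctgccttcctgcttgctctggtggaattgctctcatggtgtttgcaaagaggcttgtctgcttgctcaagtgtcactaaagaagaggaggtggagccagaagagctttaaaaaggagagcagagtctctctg
Umod held 1 GTTAAT and the other windows held none of the 3 motifs. Among 32851 windows of 250 bases before gene starts, 6.43% had GTTAAT, 6.75% TGANTCA and 12.4% TATAAA on either strand, so a match is a description of letters and not of a bound site.

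Cells with and without Lcn2 were set apart after results of these data had been seen, so the contrast is a description. To compare cells at 1 depth, each was thinned to 1672 UMIs drawn at random, after which 24.9% (95% exact interval 21.6 to 28.5), 27.3% (24.3 to 30.6) and 19.7% (15.9 to 24.02) of members had an Lcn2 UMI, against 0.816%, 1.82% and 0.696% of T cells. Without thinning the shares were 43.0%, 44.1% and 29.4%. Levels in the 2 groups of cells are from thinned counts.

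Egf was far lower in the cells with Lcn2. It was at 606, 515 and 583 CPM in cells with Lcn2 and at 4044, 3888 and 3470 CPM in cells without, a log2 ratio of -2.74, -2.91 and -2.57. Wfdc15b had -1.14, -1.55 and -1.45, and Slc12a1 had -1.25, -0.98 and -0.88. Umod was at 10743, 9914 and 12008 CPM with Lcn2 and 12787, 11808 and 10026 CPM without. Cells with few UMIs of Umod or Slc12a1 had been left out by the rule, so the values of these 2 genes describe the remaining cells only.

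Genes that are commonly raised in injured tubules were higher with Lcn2. Clu, a secreted chaperone, was at 1943, 1849 and 3305 CPM against 182, 359 and 302 CPM. The keratins Krt8 and Krt18, intermediate filaments of simple epithelia, had log2 ratios of 2.27, 2.18 and 2.61, and 2.49, 2.04 and 3.67. Spp1 (osteopontin), a secreted phosphoprotein, stood at 21760, 21090 and 34152 CPM against 4204, 4988 and 4728 CPM. Cldn4 and Cldn3, barrier claudins, had log2 ratios of 3.87, 2.75 and 3.51, and 2.07, 2.09 and 2.88. The plot of cells with and without Lcn2 shows that each of these genes lay on the same side in all 3 libraries, WT included.

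**Figure D2:**
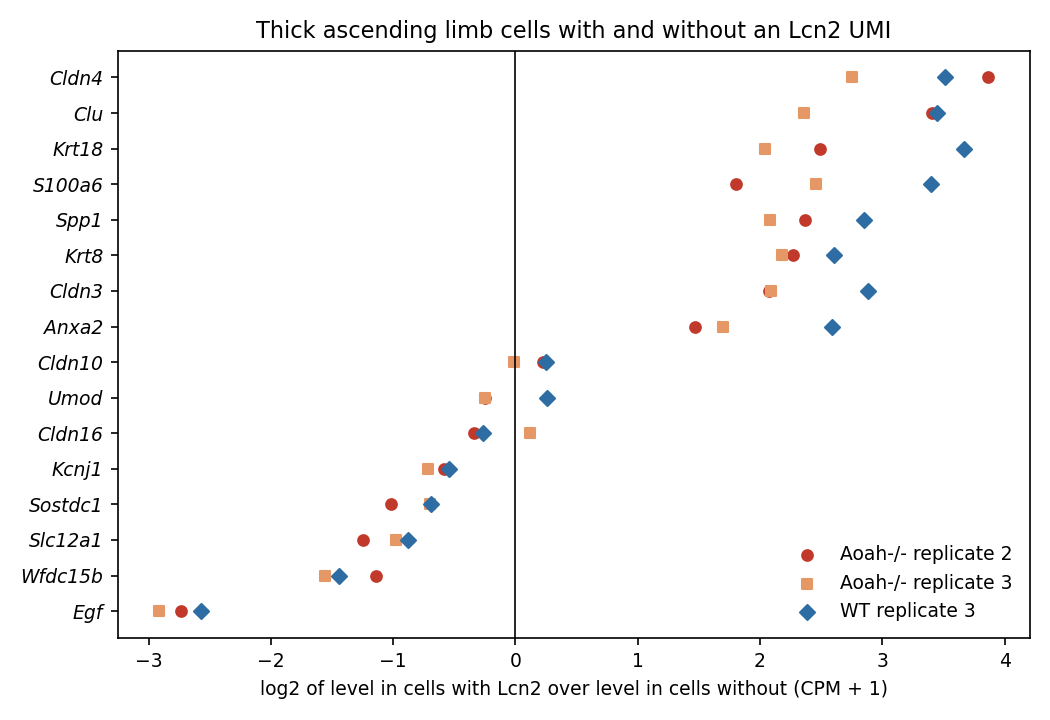
Log2 ratio of the level in cells with an Lcn2 UMI to the level in cells without (thinned counts, CPM plus 1), with 1 point per library (circle, Aoah-/- replicate 2; square, Aoah-/- replicate 3; diamond, WT replicate 3). Egf lies between -2.91 and -2.57 and Clu between 2.36 and 3.45, while Umod lies around 0.

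Summed over lists, the injury and dedifferentiation genes were at 37801, 38330 and 54694 CPM with Lcn2 and 10721, 12703 and 10750 CPM without. Transcripts of the mitochondrial genome went the other way, at 142874, 172285 and 113299 CPM against 268771, 252547 and 203395 CPM, and so did the nuclear genes of the respiratory chain, at 39074, 38126 and 40532 CPM against 52649, 54918 and 55694 CPM. The immediate early genes, which answer a stimulus within minutes, were higher with Lcn2 (log2 1.12, 0.97 and 0.40), and so were ribosomal protein genes (0.69, 0.57 and 0.55). Havcr1 (KIM-1), the injury marker of proximal tubule, had a UMI in 2, 4 and 6 members after thinning. The principal cell list was at 38.1, 46.9 and 38.3 CPM with Lcn2 and 24.02, 47.7 and 34.0 CPM without, and Aqp2 at 0 in the cells with Lcn2 of every library. The distal convoluted tubule list was lower with Lcn2 (log2 -1.65, -1.06 and -1.01), as were the summed MHC class II list (-0.98, -0.47 and -1.81), the erythroid list (-2.90, -0.44 and -4.76) and the fibroblast list (-3.35, -1.10 and -1.87). The part of this RNA in the contrast was not tested.

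Claudins divide the thick ascending limb into cells that pass sodium, which carry Cldn10, and cells that pass calcium and magnesium, which carry Cldn16 with Cldn19. In thinned counts, 10.4% (95% exact interval 7.29 to 14.2), 11.4% (8.43 to 14.9) and 17.9% (12.4 to 24.5) of cells with Cldn10 had a Cldn16 UMI, against 24.8% (20.1 to 30.1), 19.3% (15.5 to 23.5) and 30.8% (24.9 to 37.3) of cells without. The intervals did not overlap in any library. Cldn19 gave no such split, with 28.7%, 29.1% and 32.7% of cells with Cldn10 and 29.1%, 29.8% and 30.4% of cells without. In cells with Cldn10, the share with a UMI of either Cldn16 or Cldn19 was 36.6% (31.4 to 42.1), 37.7% (32.9 to 42.7) and 45.8% (38.1 to 53.7). In cells without, it was 45.0% (39.3 to 50.8), 40.6% (35.7 to 45.6) and 52.0% (45.3 to 58.6). These intervals overlapped in every library. The combined share thus differed by -8.45, -2.88 and -6.15 percentage points between cells with Cldn10 and cells without. The sign of that combined difference turned in Aoah-/- replicate 3 without thinning, to 8.85 points more frequent, and to 23.01 points more frequent when 2 or more UMIs were asked for. In T cells, 2.58%, 2.93% and 2.09% had Cldn10 and 0.068%, 0.221% and 0% had Cldn16, the last of which allows up to 0.298% of cells with a UMI at that depth.

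In these thinned counts, cells with Cldn16 and no Cldn10 numbered 75, 77 and 70, and cells with Cldn10 and no Cldn16 numbered 294, 350 and 138, with medians of 9059, 6987 and 7136 and of 9077, 7409 and 7740 UMIs. The Cldn16 class was 11.9%, 9.70% and 17.7% of members and the Cldn10 class 46.7%, 44.1% and 34.9%, so WT had relatively more of the first. The classes hold at that depth only, since in all UMIs the Cldn16 class had Cldn10 at 86.5, 139 and 64.9 CPM, and 60.6%, 51.01% and 47.6% of members had a UMI of Cldn10 together with one of Cldn16 or Cldn19. They were defined after results of these data had been seen, and their levels come from all UMIs of the cells. Of 2722 genes, 49 (1.8%) were at least 1.5-fold higher in the Cldn16 class in each library and 32 (1.18%) in the Cldn10 class.

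Among the genes higher in the Cldn16 class were a hormone receptor, a potassium channel and transcription factors. Tmem52b, a membrane protein, was at 972, 1061 and 1107 CPM against 48.8, 69.2 and 36.3 CPM in the Cldn10 class, and Foxq1, a forkhead transcription factor, at 343, 311 and 410 CPM against 36.3, 20.1 and 16.4 CPM. Pth1r, the parathyroid hormone receptor, was at 440, 527 and 575 CPM against 103, 161 and 159 CPM. Kcnj10, a basolateral potassium channel, Wnk1, a kinase that governs salt transporters, Irx3, Col5a2, Car15, Itpr2, Zfp503, Sult1d1, Shd, Id3 and Sfrp1 were also higher in each library. Egf, though far from confined to this class, was at 5364, 3820 and 3975 CPM against 2196, 2162 and 2167 CPM, so Egf was unequal between claudin classes as well as with Lcn2.

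Among the genes higher in the Cldn10 class were 2 of prostaglandin signalling and 3 homeobox factors. Ptgds, prostaglandin D synthase, was at 158, 115 and 63.9 CPM against 16.1, 17.3 and 3.71 CPM. Ptger3 was at 224, 207 and 292 CPM against 103, 70.9 and 38.9 CPM. Irx1, Irx2 and Prox1 were higher too, as were Nccrp1, Tnfaip2, Socs3, Egfl6, Enpp2, Hist1h1c, Slco3a1, Cxcl10 and Ckb. Umod, Slc12a1, Cldn19, Kcnj1 and Lcn2 differed by less than 0.4 on the log2 scale in every library. Members with the macula densa gene Nos1 were rare, 6, 5 and 0 cells in thinned counts, the last of which allows up to 0.759% of cells with a UMI at that depth and sets no limit on cells that carry the transcript. Without thinning there were 10, 11 and 0 such cells.

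**Figure D3:**
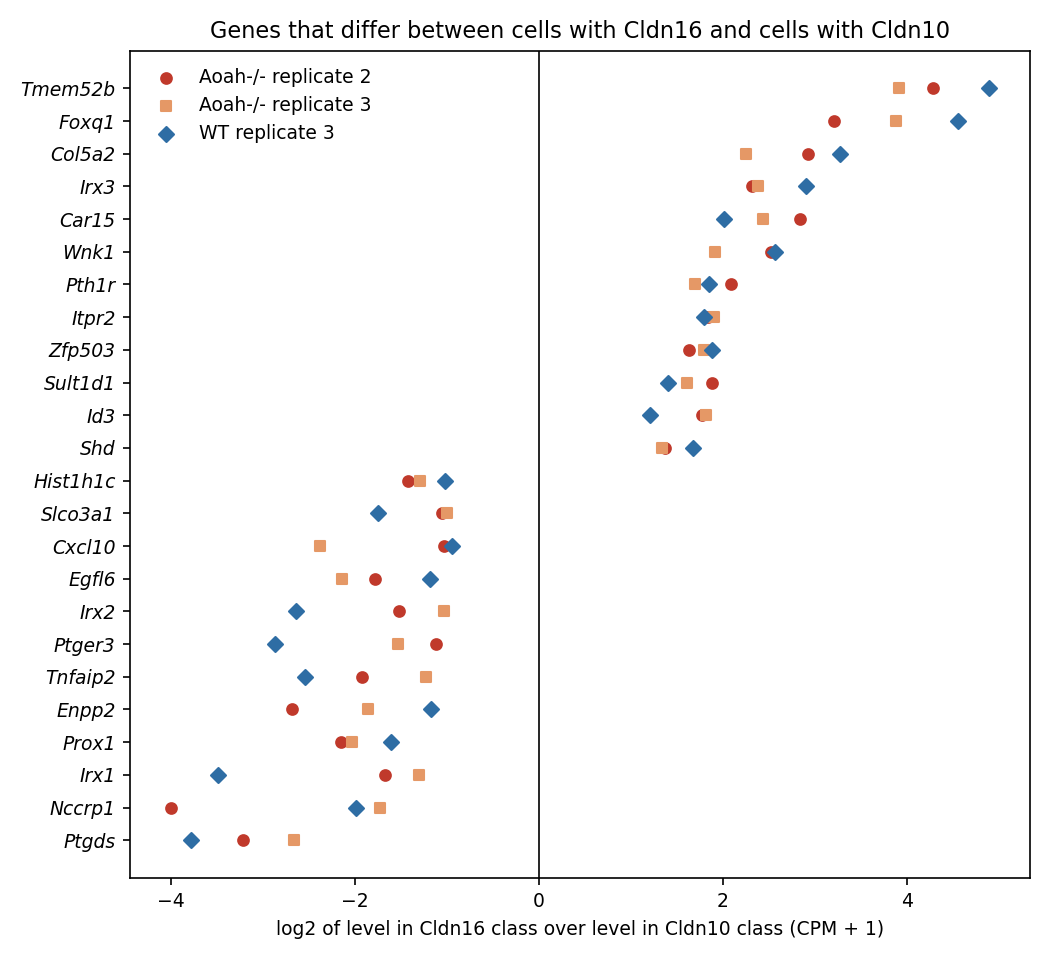
Log2 ratio of the level in cells with Cldn16 and no Cldn10 to the level in cells with Cldn10 and no Cldn16 (CPM plus 1), for 12 genes of each direction, with 1 point per library (circle, Aoah-/- replicate 2; square, Aoah-/- replicate 3; diamond, WT replicate 3). Tmem52b and Foxq1 lie above 3 in every library and Ptgds lies below -2.

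Between genotypes, thick ascending limb cells differed in few genes by a test and in more by size. UMIs were summed per library and tested with edgeR's quasi-likelihood test and Benjamini-Hochberg adjustment over 5822 genes with a mean of at least 20 CPM. The spread is that between the 2 Aoah-/- libraries, which the WT library is assumed to share. The test called 4 genes (0.0687%) higher and 5 (0.0859%) lower in Aoah-/-, and 795 genes had an unadjusted p under 0.05. By size, 37 genes (0.636%) were at least 1.5-fold above WT and 101 (1.73%) at least 1.5-fold below it in both Aoah-/- libraries, on CPM plus 1, all 9 called genes among them. The split depended on scaling, with 63 higher and 62 lower under median-of-ratios size factors and 64 and 63 with Umod and mitochondrial UMIs left out of the totals. Both scalings move all genes up alike, from a median of -0.087 over both libraries to -0.00017 and -0.00062. The split also depended on the cells and the filter, with 151 higher and 140 lower at no more than 20% mitochondrial UMIs and 715 and 449 with no filter beyond 10 UMIs. By comparison, 104 genes differed at least 1.5-fold between the 2 Aoah-/- libraries. With at most 20% mitochondrial UMIs per cell the test called 1 gene, Gm8730, and across all choices of cells and tool its count ranged from 1 to 261. In the smaller set of cells the fitted log2 fold changes of genes that lost the call were not smaller for Cryab (1.46), Usp2 (-1.37) and Nrep (3.23).

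Cryab and Nrep were 2 of the 4 genes that rose. Cryab, the small heat shock protein alpha-B-crystallin, was at 212, 224 and 110 CPM (95% Poisson intervals 200 to 224, 213 to 236 and 99.0 to 123), both Aoah-/- libraries above WT. Its log2 fold change was 1.07 with a standard error (SE) of 0.14 and an adjusted p of 0.0400 in edgeR. In distal convoluted tubule cells Cryab was at 34.8, 30.7 and 47.6 CPM, lower in Aoah-/-. Nrep, a small neuronal regeneration protein, was at 58.4, 45.9 and 9.74 CPM, a log2 fold change of 2.50 (SE 0.27, edgeR adjusted p = 0.0215), and in distal convoluted tubule cells at 47.5, 37.9 and 31.8 CPM.

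Pck1, the enzyme that starts gluconeogenesis and a gene of the proximal tubule, was at 54.8, 51.4 and 19.2 CPM. It rose by 1.56 on the log2 scale (SE 0.18, edgeR adjusted p = 0.0269). Its levels in proximal tubule cells were 2189, 1534 and 1000 CPM, and in T cells 113, 73.2 and 32.7 CPM, so Pck1 was higher in both Aoah-/- libraries also in cells that should lack it. Gm8730, a processed pseudogene on chromosome 8, was at 89.4, 95.05 and 13.3 CPM, with 238, 205 and 34.4 CPM in T cells. Pseudogenes share reads with their parent gene, so the source of these UMIs is uncertain.

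The 5 genes that fell were Usp2, Nr1d1, Tubb4b, Pttg1 and Gpx6. Usp2, a ubiquitin protease whose RNA follows the circadian clock, was at 115, 110 and 269 CPM, lower in both Aoah-/- libraries by 1.17 on the log2 scale in edgeR (SE 0.13, adjusted p = 0.0215). Nr1d1 (Rev-erb alpha), a repressor at the core of that clock, was at 45.8, 39.5 and 99.4 CPM (log2 fold change -1.13, SE 0.15, edgeR adjusted p = 0.0422). Of a list of clock genes drawn up after these 2 had been seen, 7 of 19 reached 20 CPM, and 5 were below WT in both Aoah-/- libraries, the 2 genes that prompted the list among them, where 53.2% of all genes tested were below. The time of day of collection is not given in the sources used here.

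Tubb4b, a beta-tubulin, was at 99.3, 115 and 260 CPM (log2 fold change -1.19, SE 0.13, edgeR adjusted p = 0.0215). Pttg1, securin, which holds sister chromatids together, was at 50.9, 58.0 and 117 CPM, and in distal convoluted tubule cells at 80.6, 82.9 and 153 CPM, lower in Aoah-/- in both segments. Gpx6, a glutathione peroxidase, was at 31.7, 29.5 and 70.2 CPM, and at 31.2, 37.5 and 62.9 CPM in distal convoluted tubule cells. Gpx6 lies on chromosome 13 at 21312125 to 21319624 (GENCODE annotation, GRCm38), 275508 bases from the targeted gene Aoah at 20794113 to 21036617, a neighbourhood that is inherited together with the targeted locus. A difference in DNA around Aoah and loss of Aoah cannot be told apart there. Pck1, Nrep and Gpx6 had means under 50 CPM and were named after their values had been seen.

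The genes that passed 1.5-fold in both libraries without passing the test under the settings above made up the rest of the named set. Higher in Aoah-/- were Egfl6, an extracellular matrix protein (260, 196 and 95.5 CPM), Ptgds (100.1, 72.9 and 36.7 CPM), Krt19 (87.0, 109 and 52.6 CPM), Gpx3, the plasma glutathione peroxidase (482, 583 and 301 CPM), and Cd74, Scd2, Tnfaip2, Nnt and Prox1. Their edgeR adjusted p-values lay between 0.0588 and 0.249. Lower were Fabp3, a fatty acid carrier (224, 189 and 446 CPM), Klf4, a stress-responsive transcription factor (103, 173 and 306 CPM), Id3, Sprr1a, Erdr1 and the haemoglobins Hbb-bs, Hba-a1 and Hba-a2, with adjusted p-values between 0.0588 and 0.366. Hbb-bs was at 310, 1416 and 2442 CPM, with Aoah-/- replicate 3 nearer to WT than to replicate 2. Calls of these genes depended on the settings. Of 11 alternatives, Fabp3 passed the test in 9, Egfl6 in 8, Ptgds and Tnfaip2 in 7, and Krt19, Id3 and Erdr1 in 6. The other genes of this group passed in 1 to 5. Sprr1a changed direction under some choices of cells, reaching 0.16 on the log2 scale.

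Some of the genes higher in Aoah-/- were also genes of the Cldn10 class. Of the 13 named genes higher in Aoah-/-, 5 were at least 1.5-fold higher in the Cldn10 class in each library and none in the Cldn16 class, against 1.18% and 1.8% of the 2722 genes compared. Of the 13 lower ones, 1 and 2 were. Nrep, 1 of the 5, had a mean of 32.3 CPM over the classes, and Pck1, Gpx6 and Sprr1a had 36.4, 46.9 and 26.2 CPM. These means are under 50 CPM and below those of the class genes listed above. The 2722 genes are therefore no matched background for the named genes. These cells are part of those the genes were picked in, so a shared direction within a class is largely fixed by the choice and is given as a description. Within the Cldn10 class alone, 12 of the 13 and 10 of the 13 kept their direction in both Aoah-/- libraries, with Krt19 (-0.00365 and 0.00346 on the log2 scale) the exception among the first and the 3 haemoglobins among the second. Within the Cldn16 class 11 and 12 of the 13 did, with Prox1 at -0.21 and -0.11 and Egfl6 at 0.65 and -0.15. Cryab within the Cldn10 class was higher by 1.05 and 0.52 and Nrep by 2.95 and 2.55, and Usp2 was lower at -1.06 and -1.07. Prox1 and Egfl6 were nearer to WT, at 0.33 and 0.31 and at 1.26 and 0.80 in the Cldn10 class, than over all members.

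Named genes were set against the same comparison in distal convoluted tubule cells, picked by at least 2 UMIs of Slc12a3 with the same limits on other cells, to see which differences the neighbouring segment shared. An edgeR interaction test with the library as a block called 181 genes (3.11%) as more positive and 120 (2.06%) as more negative in thick ascending limb cells. Among the 26 named genes these were Cryab, Cd74, Egfl6, Krt19, Scd2, Tnfaip2 and Nrep on the positive side, and Tubb4b, Usp2, Nr1d1, Id3, Fabp3 and the 3 haemoglobins on the negative. Cryab had an interaction of 1.52 on the log2 scale (edgeR adjusted p = 6.57e-12), Nrep 1.98 (9.37e-10) and Usp2 -0.83 (1.05e-05). Pck1, Gpx6, Pttg1 and Gm8730 did not pass, with 0.03, -0.35, -0.21 and 0.83. The model leaves 1 residual degree of freedom, so its small p-values rest on spread borrowed across genes. The named genes had also been picked for their difference in these same thick ascending limb sums. Their interactions are therefore partly fixed by that choice and are given as a description. Against proximal tubule cells, the same test called no gene (0%) as more positive and 1 (0.0172%) as more negative, with 735 genes at an unadjusted p under 0.05. That gene was Spp1, at 9676, 11754 and 14333 CPM in thick ascending limb cells and 1329, 1373 and 516 CPM in proximal tubule cells, with an interaction of -1.75 (edgeR adjusted p = 0.0485).

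**Figure D4:**
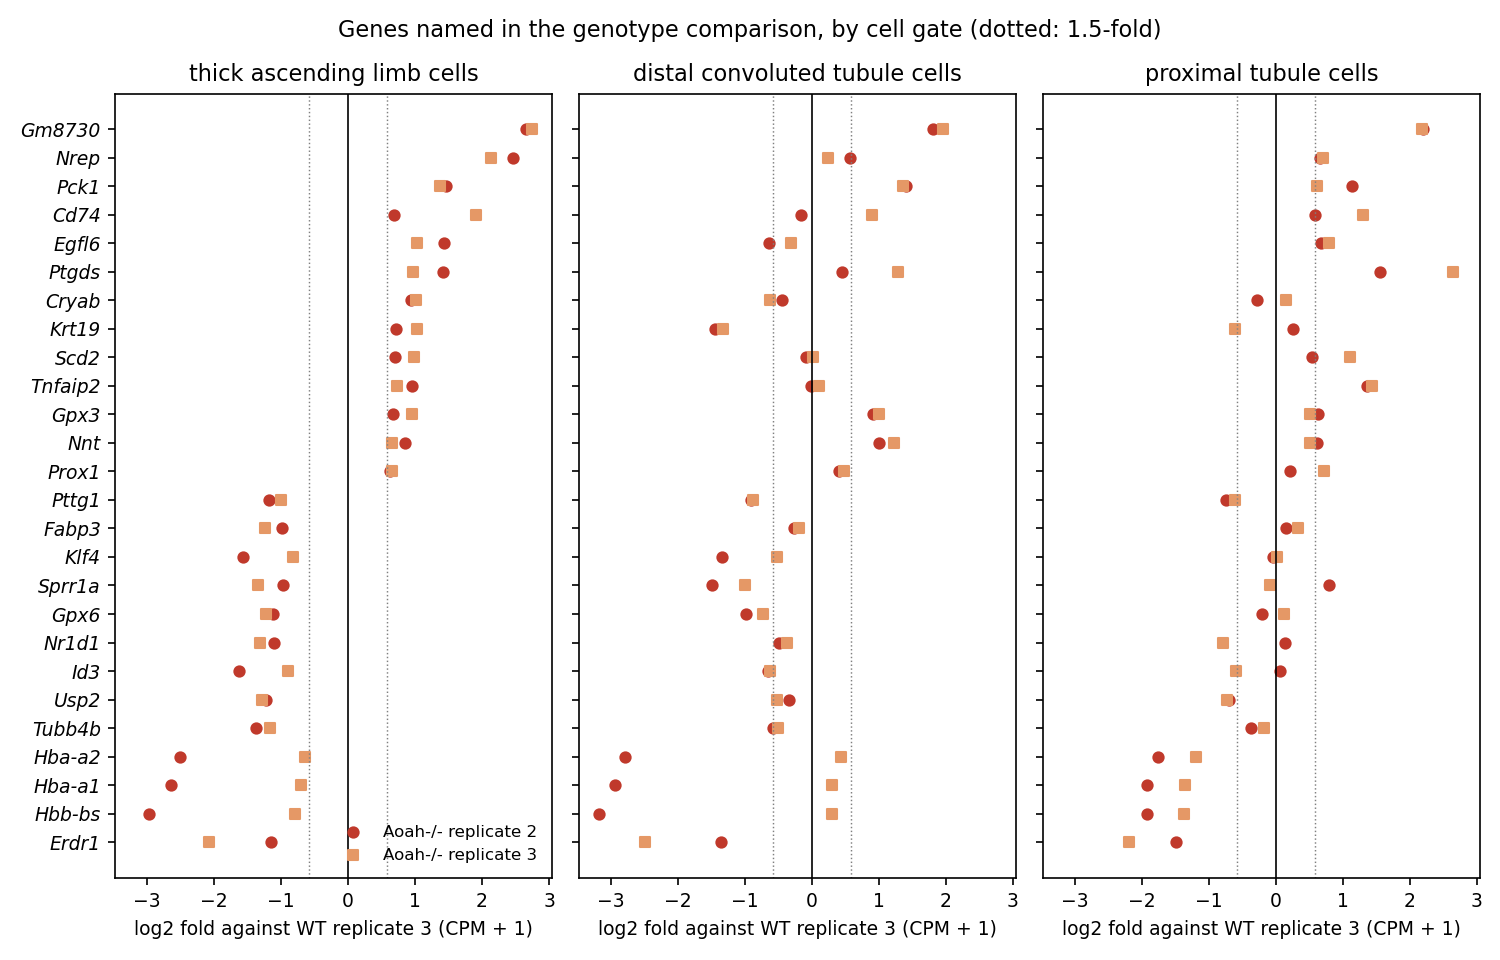
Log2 fold of each Aoah-/- library against WT replicate 3 (CPM plus 1) for the 26 named genes in 3 cell gates (circle, replicate 2; square, replicate 3), with dotted lines at 1.5-fold. Cryab lies right of 0 in thick ascending limb cells and left of it in distal convoluted tubule cells, whereas Gm8730 lies right of 0 in all 3.

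By function, the transport lists of the segment had few members past either rule, as had all genes tested. Of all 5822 genes, 0.155% passed the test, and 0.636% and 1.73% passed the fold rule higher and lower. In both libraries 24.8% were above WT and 53.2% below. At these shares, a list of this size with no member past a rule says little about its members. Of 16 salt transport genes that reached 20 CPM, none passed the test or the fold rule, 7 were above and 8 below WT in both libraries, and the medians of -0.02 and -0.01 on the log2 scale compare with -0.11 and -0.06 over all 5822 genes. Fxyd2, the gamma subunit of the sodium pump, was at 4736, 5337 and 5591 CPM, and Kcnj1, the luminal potassium channel, at 347, 335 and 339 CPM. Of 12 paracellular and divalent cation genes 1 passed the fold rule, Cldn16, at 113, 113 and 182 CPM (edgeR adjusted p = 0.107). Of 12 hormone receptor and signalling genes none did, with Pth1r at 228, 271 and 351 CPM, and of 18 identity transcription factors 1 did, Foxq1, at 116, 82.3 and 184 CPM. Pth1r and Foxq1 were also higher in the Cldn16 class, whose share was larger in WT, and the part of that share in these differences was not tested. Cldn16 itself defines the class. Secreted products had no member past either rule, with Umod, Spp1 and Sostdc1 as above.

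Genes of the mitochondrial genome were higher and nuclear genes of respiration were not. All 13 genes of the mitochondrial genome were above WT in both Aoah-/- libraries, with medians of 0.41 and 0.30, and mt-Atp6 was at 51433, 46665 and 39041 CPM, but none passed the test or 1.5-fold. The same 13 were above WT in distal convoluted tubule cells (medians 0.29 and 0.11) and 12 of 13 in proximal tubule cells, while all 13 were below WT in macrophages. Of all 5822 genes, 1379 were above in distal convoluted tubule cells, 2225 above in proximal tubule cells and 889 below in macrophages. Of 75 nuclear respiratory chain genes, 15 were above and 38 below WT in both libraries, against 24.8% above and 53.2% below over all genes tested. Fatty acid oxidation (19 genes) and the citrate cycle and glycolysis (30 genes) had no member past either rule. Over all genes tested, 0.155% passed the test, and 0.636% and 1.73% passed the fold rule higher and lower.

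Immediate early genes, which cells switch on within minutes of a stimulus and of tissue dissociation, were lower in most members. Of 23, 18 were below WT in both Aoah-/- libraries and none above, with medians of -0.31 and -0.37, against 53.2% below and medians of -0.11 and -0.06 over all genes. Jun was at 2652, 2423 and 4163 CPM and Jund at 577, 610 and 1244 CPM (edgeR adjusted p = 0.176 and 0.0523), and 4 of 23 passed 1.5-fold, against 1.73% of all genes. Their sum in distal convoluted tubule cells was 9246, 8245 and 14517 CPM, lower in Aoah-/- as well, and in proximal tubule cells 4310, 4215 and 4446 CPM. Member by member the proximal tubule went the other way, with 17 of 23 above WT in both libraries, 5 below and medians of 0.26 and 0.48, where 2225 of all 5822 genes were above and 2694 below. The heat shock list had medians of -0.31 and -0.25 with 1 of 13 members called higher, Cryab, and Dnaja1 past 1.5-fold lower (229, 222 and 390 CPM), so Cryab went against its list.

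Endoplasmic reticulum stress genes had medians of -0.03 and 0.03, with 3 of 18 past 1.5-fold lower, where 1.73% of all genes were past it lower and 0.636% higher, the background for the following lists too. Among the 3 were Manf (77.5, 76.8 and 141 CPM) and Herpud1 (150, 141 and 251 CPM). Injury and dedifferentiation genes had medians of -0.13 and 0.24, on both sides of WT, with 1 of 27, Krt19, past the fold rule, and their sum was 20180, 24689 and 25909 CPM. Lcn2 was at 519, 725 and 560 CPM. Antioxidant genes and metallothioneins had 1 of 23 higher (Gpx3) and 2 lower, and cell cycle and p53 target genes 1 of 11 lower, Gdf15, at 55.3, 50.5 and 101 CPM. Ribosomal protein genes had 45 of 61 above WT in both libraries, with medians of 0.06 and 0.20, against 24.8% and medians of -0.11 and -0.06 over all genes. In distal convoluted tubule cells none of the 61 was above and 55 were below, against 1379 and 2927 of all 5822 genes. The interaction test called 33 of the 61 as more positive in thick ascending limb cells, against 3.11% of all genes.

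**Figure D5:**
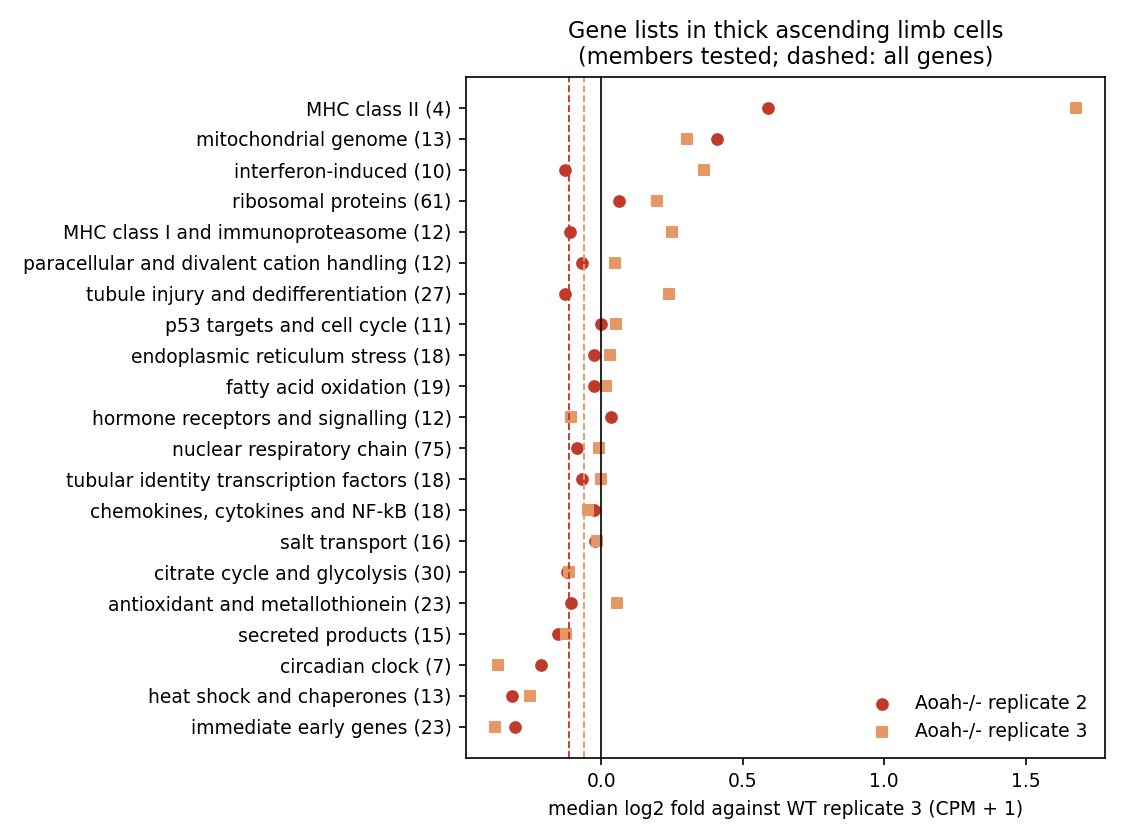
Median log2 fold of each Aoah-/- library against WT replicate 3 over the members of each gene list that reached 20 CPM (their number in brackets; circle, replicate 2; square, replicate 3), with dashed lines at the medians of all 5822 genes. The MHC class II and mitochondrial genome lists lie right of 0 in both libraries and the immediate early and heat shock lists left.

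Cd74, the invariant chain that escorts MHC class II molecules and the gene the study followed in proximal tubule, was low in thick ascending limb cells. It was at 61.6 CPM (95% Poisson interval 55.5 to 68.3), 145 (136 to 155) and 38.0 (31.4 to 45.5), and the 2 Aoah-/- libraries lay farther from each other than replicate 2 lay from WT. The edgeR log2 fold change was 1.53 (SE 0.46, adjusted p = 0.249), which did not pass. Cd74 passed the test in 4 of 11 alternatives, with fitted log2 fold changes from 0.76 to 1.75. T cells, which should lack it, had 370, 326 and 199 CPM and macrophages 8631, 17116 and 18142 CPM. In thinned counts a Cd74 UMI was found in 9.52%, 21.8% and 4.81% of members (29.8%, 41.3% and 18.5% unthinned, at medians of 9152, 6297 and 7171 UMIs) and in 14.96%, 19.9% and 13.3% of T cells (22.6%, 30.1% and 19.6%, at 2755, 3032 and 3092 UMIs). In Aoah-/- replicate 2 and WT the share in members was below that of T cells, and in Aoah-/- replicate 3 it was 21.8% (19.0 to 24.8) against 19.9% (18.1 to 21.9), so these shares are not read as expression. Distal convoluted tubule cells had 53.7, 113 and 60.1 CPM and a Cd74 UMI in 9.29%, 20.2% and 7.71% of thinned cells. In WT both values were above those of members, and in CPM Aoah-/- replicate 2 lay below WT in this segment. The interaction test called Cd74 as more positive in thick ascending limb cells, by 0.95 on the log2 scale. The part of free RNA in these values was not tested.

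Of the 10 MHC class II genes listed, 4 reached 20 CPM, Cd74 itself, H2-Aa, H2-Ab1 and H2-Eb1. All 4 were above WT in both Aoah-/- libraries, as were 24.8% of all genes, with medians of 0.59 and 1.68 that include Cd74, and H2-Aa was at 33.7, 75.9 and 21.4 CPM. The macrophage list moved alike, with Lyz2 at 49.2, 76.5 and 22.7 CPM and Apoe at 248, 410 and 174 CPM in thick ascending limb cells, and its part in the MHC class II levels was not tested. MHC class I genes had medians of -0.11 and 0.25, with H2-K1 at 318, 415 and 351 CPM, and interferon-induced genes -0.13 and 0.36, neither with a member past the fold rule or the test. Chemokine, cytokine and NF-kB genes had 2 of 18 higher and 2 lower by 1.5-fold in both libraries, against 0.636% and 1.73% of all genes, and none called. Ccl20 was at 4.77, 41.8 and 81.9 CPM and Il1b at 10.9, 51.6 and 7.15 CPM, and on the log2 scale the Aoah-/- libraries lay farther from each other in both genes than 1 of them lay from WT. Of the complement list, C3 alone reached 20 CPM, at 43.6, 60.5 and 64.3 CPM.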

How the data were processed

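Dissociated kidney cells of 3 FA-treated mice on day 14 were profiled by droplet single-cell RNA sequencing, 1 library per animal, with no pooling of animals. The deposited values are raw UMI counts per gene and barcode, which the authors made with Cell Ranger. The submitters' processing notes name Cell Ranger 3.1.0, STAR, Seurat 4.2.0 and build mm10, whereas the matrix header names Cell Ranger 6.1.2. No cell annotation was used. Of 25516, 24693 and 23072 deposited barcodes (Aoah-/- replicate 2, Aoah-/- replicate 3 and WT replicate 3), 15441, 19692 and 13271 were kept. No doublet caller was run, and the limits on genes of other cell types act on mixed barcodes.

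Counts of member cells were summed per library and divided by the library's sum to give CPM. Genes with a mean of at least 20 CPM were tested with edgeR 4.0.16 (TMM factors, quasi-likelihood test, Benjamini-Hochberg threshold 0.05) in R 4.3.3. DESeq2 1.42.0 was an alternative. Only edgeR was tried on simulated data, where it recovered 10 of 50 genes changed 1.5-fold and 42 of 50 changed 2-fold. It made 9 false calls there. Fold changes outside edgeR are log2 of CPM plus 1. The interaction test used the summed counts of 2 cell types with library as a block. T cells had at least 2 UMIs of Cd3d, Cd3e and Cd3g, and distal convoluted tubule cells at least 2 of Slc12a3. Intervals are exact and cover counting error only. Python 3.11.15, numpy 2.4.6, pandas 2.3.3 and scipy 1.17.1 were used for the rest.

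Named genes were the 20 highest against other barcodes, up to 12 in each direction with a mean of at least 50 CPM, at least 1.5-fold from WT in both Aoah-/- libraries (those past the test first), the 2 most abundant and 2 most changed members of each list, and the markers, of which the text prints a part. 1 gene that these rules name is not reported here. Genes of the claudin classes and of the Lcn2 contrast, the clock list, and Pck1, Nrep and Gpx6 were chosen after their values were seen. The member cells, the gene lists and the rules were chosen with earlier results of these data known. Alternatives changed the limits on mitochondrial UMIs, genes, gate genes and depth, the low-count filter, the scaling and the tool, and left out each Aoah-/- replicate in turn.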

Additional observations from a re-analysis of the deposited data

Results flagged for a closer look

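Of the 26 named genes, 15 had a genotype difference in thick ascending limb cells that differed from that in distal convoluted tubule cells by the edgeR interaction test with Benjamini-Hochberg adjustment. More positive in thick ascending limb cells, on the log2 scale, were Krt19 by 2.29 (adjusted p = 1.55e-34), Nrep by 1.98 (9.37e-10), Egfl6 by 1.73 (0.000175), Cryab by 1.52 (6.57e-12), Cd74 by 0.95 (0.000174), Scd2 by 0.89 (0.000381) and Tnfaip2 by 0.78 (0.00042). Krt19 was at 36.7, 39.7 and 101 CPM in distal convoluted tubule cells, lower in Aoah-/-, whereas it was higher in thick ascending limb cells. In the latter, its log2 fold change ranged from 0.29 to 1.89 over the alternatives. Within the Cldn10 class it was -0.00365 and 0.00346. The interaction model leaves 1 residual degree of freedom, as given above. More negative were Fabp3 at -0.90 (4.51e-07), Usp2 at -0.83 (1.05e-05), Nr1d1 at -0.79 (0.0148), Tubb4b at -0.74 (0.000174), Id3 at -0.62 (0.00314), Hba-a2 at -0.57 (0.0087), Hbb-bs at -0.53 (0.00929) and Hba-a1 at -0.51 (0.0251). Fabp3, Usp2, Nr1d1, Tubb4b and Id3 were lower in both Aoah-/- libraries in distal convoluted tubule cells too, as given above. All 26 genes were named for their difference in thick ascending limb cells, so the comparison is not independent of that choice. No group had the 4 samples that a test for outlying samples needs.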

How the results depend on the processing

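No paired analysis was possible because the groups share only replicate number 3. Without an Aoah-/- replicate no residual degree of freedom is left for edgeR, so those settings give values with no test. The setting of at least 5000 UMIs per cell was chosen after seeing the data.

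The mean difference in the share of thick ascending limb cells (1.08 percentage points) was -0.0676 with at most 20% mitochondrial UMIs, 0.0306 with no UMI of the excluded genes, 0.772 with at least 5 Slc12a1 and 20 Umod UMIs, 0.969 without the 10% of cells with most UMIs, 1.16 with the gate on thinned counts and 2.74 at 5000 UMIs, and ranged from 1.06 to 1.10 without an Aoah-/- replicate. The 9 genes called by edgeR became 1 with at most 20% mitochondrial UMIs, 24 with at least 500 genes, 116 under the stricter gate, 261 on thinned counts, 64 with no excluded UMI, 20 without the 10% of deepest cells, 50 at 5000 UMIs, 88 with no filter beyond 10 UMIs, 80 at a mean of 50 CPM, 22 with library totals and 26 with DESeq2, which shared 8 of the 9. Besides the 20% limit, Cryab lost its call with library totals, Pck1 at 5000 UMIs, and Gpx6 with DESeq2 and with no excluded UMI. The 138 genes past 1.5-fold became 291, 215, 1164 and 61 with the 20% limit, no excluded UMI, no filter and 50 CPM, and 271 to 302 without a replicate. Lists with both medians at least 0.2 from 0 (of those with 3 or more members tested, without the lists of other cells and the clock list) went from 4 to 2 with the 20% limit and under both other scalings, to 1 with no excluded UMI, and to between 4 and 7 without a replicate. The claudin difference (-5.83 points) was 3.98 with 2 or more UMIs, -11.9 under the stricter gate, -0.12 with no thinning and -8.83 at 3000 UMIs. The interaction calls, 301 and 1, were 185 and 6 on thinned counts, and 0 for proximal tubule with library totals. Sprr1a turned to 0.16 and 0.030 under the stricter and the thinned gates. Krt19 (0.98) fell to 0.29 without the 10% of deepest cells and reached 1.89 on thinned counts, Klf4 (-1.06) was at -0.41 with no excluded UMI, and Hbb-bs (-1.43) ranged from -3.54 with no excluded UMI to -0.58 under the stricter gate. The causes were not tested. Cd74 kept its direction, at 0.68 to 1.91 without a replicate, and passed the test in 4 of the 11 alternatives that allowed one. With 1 WT library, spread within WT could not be measured.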
